A study of Mus musculus with 70 samples.

Results

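Lungs of Slc26a4 knockout mice were compared 9 months after inhalation of crystalline silica or of air. They gave 12 of the 70 libraries of the series, 6 from silica-exposed and 6 from air-exposed knockout mice, and all genes of the count table were used. The mice were homozygous Pds-/- males of the strain 129S-Slc26a4tm1Erg/AjgJ, bred from heterozygotes, genotyped, and about 3 months old at exposure. The strain name is as spelled in the growth protocol, and the sample characteristics spell its allele code with Egr. The silica group had breathed Min-U-Sil5 silica at 15 mg/m3 for 6 hours a day on 4 days in a whole-body chamber, and the air group had been in such a chamber with air. Wild-type (Pds+/+) males of the same breeding, 5 exposed to silica and 5 to air, and knockout males sampled 3 months after exposure, 6 per exposure, were used as comparison groups. The allele is carried in every cell from conception, so lung is not the only tissue without pendrin, and RNA came from a piece of lung, a mixture of all its cell types. A lower or higher level in such tissue can come from more or fewer cells of a type or from more or less RNA per cell, and these cannot be told apart.

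Slc26a4 encodes pendrin, a membrane protein that exchanges chloride for bicarbonate, iodide and other anions in the inner ear, thyroid, kidney and airway epithelium. In airways its RNA rises with inflammatory cytokines. Respirable silica crystals are cleared poorly and are taken up by alveolar macrophages, where they damage the lysosome. The ensuing inflammation draws in neutrophils and monocytes and can persist long after exposure has ended, with fibrosis in some settings. The data address whether silica-exposed lungs without functional pendrin still differed from air-exposed ones after 9 months.

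The 12 libraries held 1493786 to 3239422 counts, within the range of 802478 to 5596316 over the series. The air group was not uniform. Chil3, a chitinase-like protein made by alternatively activated and alveolar macrophages, lay between 626 and 1607 CPM (counts scaled to a library total of 1000000) in silica libraries. It was at 695, 985, 1112 and 1048 CPM in air replicates 1, 2, 3 and 6, and at 6668 and 3140 CPM in air replicates 4 and 5. The limit for leaving out an air library was 1500 CPM, so that its nearest neighbours were 1112 CPM below and 3140 CPM above. The limit was set for air libraries only, and silica replicate 2, at 1607 CPM, was kept. So was silica replicate 5 of the wild type, at 2486 CPM. A chi-square statistic per degree of freedom over genes was 1.83 to 5.43 for pairs of silica libraries, 2.03 to 3.08 for pairs of the kept air libraries, and 8.61 to 14.4 for air pairs that included replicate 4 or 5. No pair was within sampling noise, so each library counted as 1 sample. One wild-type air library had 7864 CPM of Chil3 and was left out with them. The comparison of silica with air was therefore made with all 22 libraries of 9 months in the fit, and with the 19 that remained. Since libraries were left out by a measured value, the 19-library comparison has an air group chosen to be low in Chil3, its p-values do not count that choice, and genes that follow Chil3 have a lower and narrower air level in it by construction.

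Levels below are CPM scaled by TMM factors over the 22 libraries. Differences are log2 fold changes, silica over air, with the standard error (SE), from edgeR's quasi-likelihood test. P-values were adjusted by the Benjamini-Hochberg method over all genes tested, and a gene is called past an adjusted p of 0.05. Nothing in the labels says that libraries of a group came from separate litters or cages, so the p-values measure the spread between these libraries.

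The targeted gene was read first. Slc26a4 had 10.4 to 14.0 CPM (median 12.7) in the 6 silica libraries. It had 3.75, 1.34, 2.7 and 2.99 CPM in the 4 kept air libraries and 52.4 and 17.0 CPM in the 2 left-out ones. Every silica library was thus above every kept air library and below both left-out libraries. Without the left-out libraries the log2 fold change was 2.16 (SE 0.44, adjusted p = 0.0052), and with all libraries it was -0.12 (SE 0.64, adjusted p = 0.98). The call was lost when the wild-type high-Chil3 library stayed in the fit (2.16, adjusted p = 0.23) and with a limit of 750 CPM for Chil3, which keeps 1 knockout air library (1.7, adjusted p = 0.64). With TMM factors over all 70 libraries, the median of the silica libraries was 12.5 CPM in knockout and 55.8 CPM in wild-type lungs at 9 months, and that of all air libraries was 3.33 CPM in knockout and 16.8 CPM in wild-type lungs. Transcript was therefore still counted in the knockout, at lower medians. Which part of the gene the allele removes is not given in the sources used here, and counts over the whole gene cannot show whether a product is functional.

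The promoters of the genes with the largest increases were searched for 4 short motifs. By the rule described with the methods, 26 genes were the largest increases in one fit or the other, and 21 of them had a RefSeq promoter of GRCm38.p6, in 23 windows of 250 bases before to 50 bases after the start. The core letters of an NF-kappa-B site, GGGANNNTCC, were in the windows of 3 genes, Slc26a4, Cxcl3 and Ccl22. They stand in 5.47% of the promoters of tested genes and 4.59% of all 32851. The core of a STAT6 site, TTCNNNNGAA, was in the windows of Lcn2 and Ccl17, and stands in 5.3% and 6.95% of those promoters. A MITF box, TCACGTG, was found in Slc13a3 only (5.81% and 3.77% of promoters), and an antioxidant response element, TGACNNNGC, in Slc13a3, Vnn3 and Tnfrsf9 (14.2% and 12.4%). Both strands were searched, and no match of one motif overlapped a match of another motif. A match is a run of letters and not a bound site. The 5 promoters with an NF-kappa-B or STAT6 core are printed 5′ to 3′ on the gene's strand, 250 bases up to the base before the start. They were picked for holding such a core. The windows of Ccl3, Saa3, Chil1 and Slc13a3, which are also described below, held neither core and are not printed. Capitals mark the core match, at -113 in Slc26a4 (chr12:31559985-31560234, minus strand), at -73 in Cxcl3 (chr5:90785851-90786100, plus strand), at -131 in Ccl22 (chr8:94745434-94745683, plus strand), at -156 in Lcn2 (chr2:32387740-32387989, minus strand) and at -154 in Ccl17 (chr8:94810203-94810452, plus strand), each counted from the start to the first base of the match. In Cxcl3 the core was matched on both strands, shifted by a base, so that 11 letters are in capitals.
Slc26a4: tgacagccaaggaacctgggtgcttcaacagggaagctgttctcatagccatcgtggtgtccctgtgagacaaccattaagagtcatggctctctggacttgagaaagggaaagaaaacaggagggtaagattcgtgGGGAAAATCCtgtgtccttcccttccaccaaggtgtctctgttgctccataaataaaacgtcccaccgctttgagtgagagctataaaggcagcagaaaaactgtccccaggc
Cxcl3: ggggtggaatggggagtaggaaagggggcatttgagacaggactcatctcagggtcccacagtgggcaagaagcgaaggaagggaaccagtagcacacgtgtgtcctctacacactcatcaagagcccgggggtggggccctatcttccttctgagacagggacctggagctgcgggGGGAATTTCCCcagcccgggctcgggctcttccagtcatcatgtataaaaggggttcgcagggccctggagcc
Ccl22: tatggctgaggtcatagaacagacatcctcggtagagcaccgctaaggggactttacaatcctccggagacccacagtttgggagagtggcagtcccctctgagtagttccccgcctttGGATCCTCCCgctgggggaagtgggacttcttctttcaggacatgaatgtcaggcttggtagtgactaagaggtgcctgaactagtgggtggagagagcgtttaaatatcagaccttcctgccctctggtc
Lcn2: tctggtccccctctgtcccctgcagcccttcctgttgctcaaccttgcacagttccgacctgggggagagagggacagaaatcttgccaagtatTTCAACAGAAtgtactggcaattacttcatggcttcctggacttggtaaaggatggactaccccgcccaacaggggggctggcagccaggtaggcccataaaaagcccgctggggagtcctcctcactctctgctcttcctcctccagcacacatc
Ccl17: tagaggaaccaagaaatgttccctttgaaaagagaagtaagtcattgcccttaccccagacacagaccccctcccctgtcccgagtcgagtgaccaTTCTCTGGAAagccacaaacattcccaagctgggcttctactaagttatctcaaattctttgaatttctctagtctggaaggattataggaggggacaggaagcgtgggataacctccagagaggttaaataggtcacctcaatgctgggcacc

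Silica-exposed knockout lungs differed from air-exposed ones after 9 months in both analyses, with very different breadth. With all libraries, 23 of 12826 genes were called (0.179%), 16 higher (0.125%) and 7 lower (0.0546%). Without the high-Chil3 air libraries, 218 of 12839 were called (1.7%), 189 higher (1.47%) and 29 lower (0.226%). All 16 increases and 6 of the 7 decreases of the first analysis were among the calls of the second. The exception was Nfil3, a transcriptional repressor of the circadian and interleukin pathways. Differences of 2-fold or more made up 67 of the 189 increases and 3 of the 29 decreases. The median log2 fold change over all genes was -0.011 with all libraries and -0.0022 without the left-out ones.

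The left-out libraries did not stand in one place. For 30 of the 189 increased genes neither of them reached the lowest silica library, for 81 one of them did, and for 78 both did. In 24 of the 189 every silica library lay above all 6 air libraries. Over all tested genes 51 (0.397%) had every silica library above all 6 air libraries. Of the 29 decreases, 10 had every silica library below all 6 air libraries, against 46 genes (0.358%) overall. The increases and decreases were called from the same values, so their separation is not a further result.

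**Figure D1:**
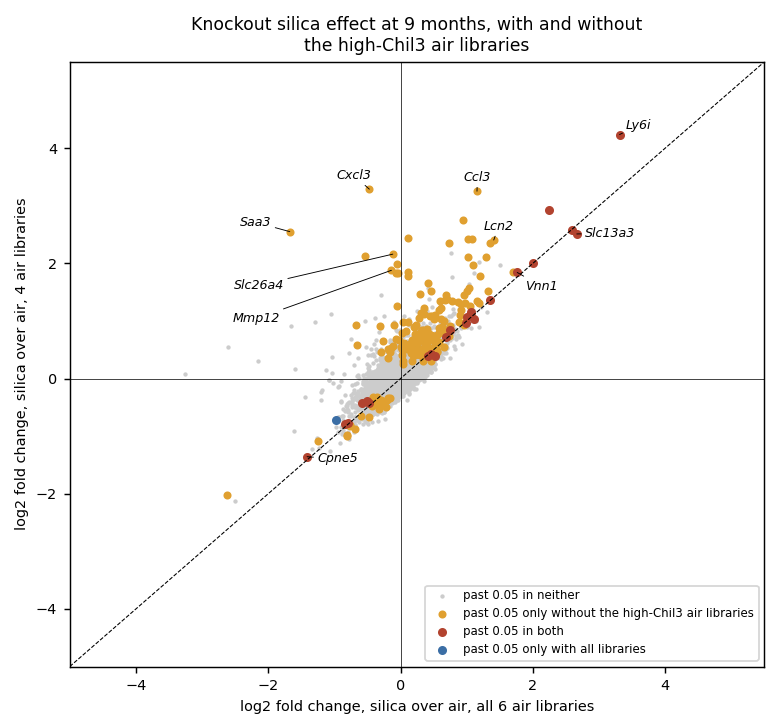
Log2 fold change of silica over air in knockout lung at 9 months for each gene tested in both analyses, with all 6 air libraries on the horizontal axis and with the 4 kept air libraries on the vertical axis. Red genes were past an adjusted p of 0.05 in both, yellow ones only without the 2 high-Chil3 knockout libraries and the wild-type one, and the blue gene, Nfil3, only with all libraries; the dashed line marks equal values. Slc13a3 and Vnn1 lie near the line and Ly6i above it, while Saa3, Cxcl3, Slc26a4 and Mmp12 lie left of zero and far above the line.

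The genes described first were called in both analyses. Ly6i, a small GPI-anchored surface protein of the Ly6 family found on myeloid cells, had 19.2 to 28.0 CPM (median 21.5) in the silica libraries. It had 0.750, 1.79, 0.899 and 1.2 CPM in the kept air libraries and 6.38 and 2.3 CPM in the left-out ones. All silica libraries were above all air libraries, the left-out ones being the highest of the air group. Its log2 fold change was 4.24 (SE 0.33, adjusted p = 3.81e-10) without the left-out libraries and 3.31 (SE 0.40, adjusted p = 5.05e-05) with all. Ly6 genes are near copies of each other, and how reads shared among them were counted is not given in the sources used here.

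Slc13a3, a sodium-coupled transporter of succinate and other dicarboxylates, had 5.45 to 6.91 CPM (median 5.9) after silica. Its kept air libraries had 0.750, 1.79, 0.899 and 0.599 CPM and the left-out ones 0.911 and 0.460 CPM. The groups did not overlap, and neither left-out library was above the highest kept one. On the log2 scale the difference was 2.51 (SE 0.39, adjusted p = 0.00017) without them and 2.66 (SE 0.32, adjusted p = 5.05e-05) with them.

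Both pantetheinases of the list, which release cysteamine and pantothenate (vitamin B5) from pantetheine, moved alike. Vnn1 had 40.9 to 54.4 CPM (median 47.4) after silica, 13.9, 15.2, 13.0 and 9.58 CPM in kept air libraries and 18.7 and 12.0 CPM in left-out ones, with no overlap between silica and air. Its log2 fold change of 1.84 (SE 0.15, adjusted p = 1.46e-09) became 1.76 (SE 0.16, adjusted p = 6.22e-07) with all libraries. Vnn3 had 14.4 to 22.3 CPM (median 17.2) after silica, 6.37, 8.48, 6.74 and 5.39 CPM in kept air libraries and 7.29 and 6.44 CPM in left-out ones, again without overlap. Its log2 fold changes were 1.37 (SE 0.20, adjusted p = 8.44e-05) and 1.35 (SE 0.19, adjusted p = 0.00042).

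Ccl22, Cd207 and Asgr2 were also called in both, although none of 16 dendritic cell and MHC class II genes was called with all libraries. Ccl22, a chemokine of dendritic cells and macrophages that attracts T cells bearing CCR4, had 9.54 to 20.0 CPM (median 15.7) after silica, against 1.12, 3.13, 2.7 and 1.2 CPM in kept and 8.65 and 2.76 CPM in left-out air libraries. Silica and air did not overlap, and air replicate 4 came closest. The log2 fold change was 2.93 (SE 0.34, adjusted p = 2.74e-06) without the left-out libraries and 2.25 (SE 0.48, adjusted p = 0.046) with all, and the second call was lost in 18 of the 22 fits that left out 1 library. Cd207, the langerin of Langerhans-type and some lung dendritic cells, had 1.36 to 6.41 CPM (median 5.23) after silica, 0.750, 0.893, 1.8 and 1.2 CPM in kept and 0.911 and 1.38 CPM in left-out air libraries. The lowest silica library was inside the air range. Its log2 fold changes were 2.01 (adjusted p = 0.025) and 2.0 (adjusted p = 0.043), and leaving out any one of air replicates 1, 2 and 6 ended both calls. Asgr2, a subunit of the asialoglycoprotein receptor that binds galactose-ended glycoproteins, had 2.08 to 7.25 CPM (median 4.35) after silica, 0.375, 0.893, 0.449 and 1.2 CPM in kept and 0.911 and 0.460 CPM in left-out air libraries. The groups did not overlap, at log2 fold changes of 2.59 (adjusted p = 0.0083) and 2.59 (adjusted p = 0.039), and the first call was lost without air replicate 1, the second in 7 of the 19 fits that left out 1 library and kept the gene above the low-count filter.

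Other genes called in both had smaller differences. Ly6e, a GPI-anchored protein that limits entry of several viruses, had 512 to 739 CPM (median 648) after silica, 409, 411, 368 and 357 CPM in kept and 508 and 328 CPM in left-out air libraries. Its log2 fold changes were 0.72 (adjusted p = 8.44e-05) and 0.68 (adjusted p = 0.0052). Mfap4, a matrix protein bound to elastic fibres, had 146 to 198 CPM (median 183) after silica, 119.9, 114, 75.9 and 87.4 CPM in kept and 138 and 106 CPM in left-out air libraries, at log2 fold changes of 0.85 (adjusted p = 4.27e-05) and 0.75 (adjusted p = 0.0036). For both genes every silica library was above every air library. Noxa1, an activator of the NADPH oxidase Nox1, and Tlr11, a receptor for profilin of protozoa, rose by log2 fold changes of 1.16 (adjusted p = 0.015) and 1.07 (adjusted p = 0.023) without the left-out libraries, and 1.06 (adjusted p = 0.043) and 1.0 (adjusted p = 0.043) with all. The calls with all libraries were lost in 14 fits for Noxa1 and 10 for Tlr11 of the 22 that left out 1 library.

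**Figure D2:**
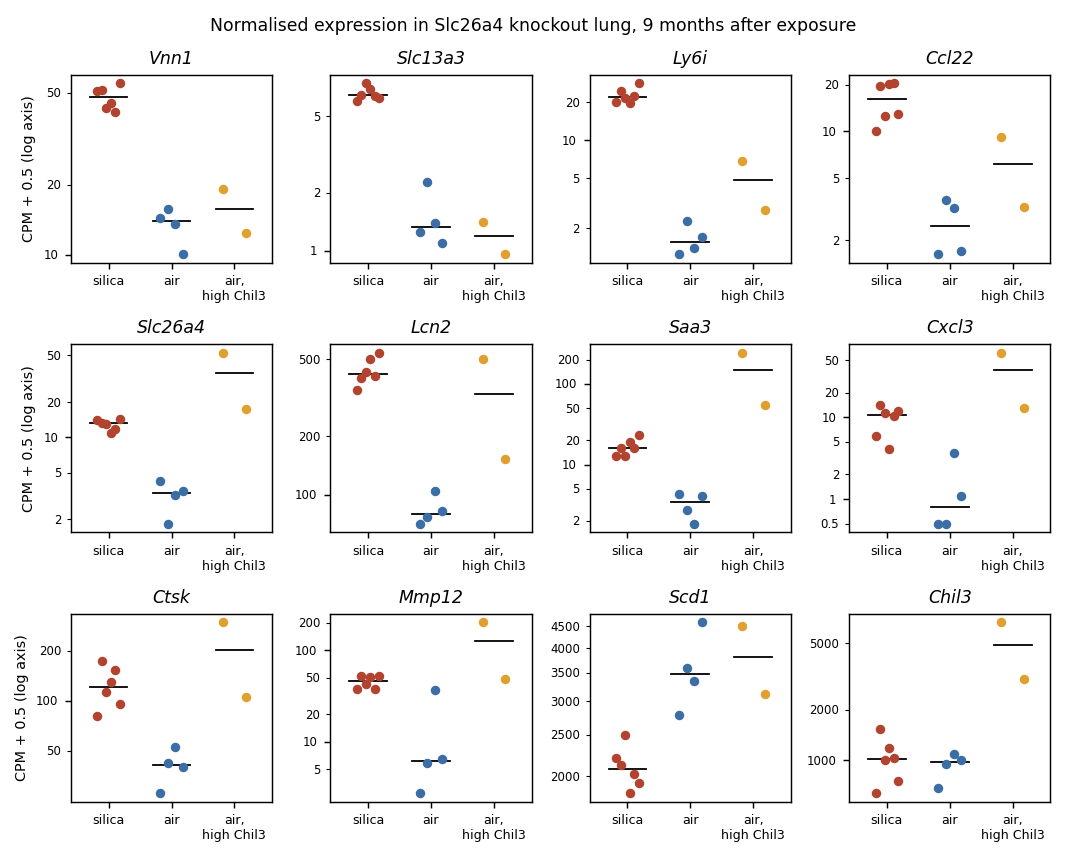
Normalised CPM plus 0.5 on log axes for 12 genes in knockout lung at 9 months, with 6 silica libraries in red, 4 kept air libraries in blue and the 2 high-Chil3 air libraries in yellow; black lines are medians. In the top row silica libraries lie above all air libraries, for Slc26a4, Saa3, Cxcl3 and Mmp12 the yellow libraries lie within or above the silica range, and Scd1 is lower after silica than in any air library.

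Secreted defence proteins made up the second kind of increase, in which the left-out air lungs also stood high. Of 11 tested genes of the acute phase and secreted defence list, 6 rose and 1, Ltf, fell without the left-out libraries (median log2 fold change 1.19), where 1.47% of all tested genes rose, and none passed with all libraries (median -0.15). Lcn2, lipocalin 2, which binds iron-carrying siderophores of bacteria, had 348 to 541 CPM (median 419.8) after silica. It had 70.5, 75.9, 104 and 82.0 CPM in kept air libraries and 504 and 153 CPM in left-out ones, so that replicate 4 was inside the silica range and replicate 5 between the groups. Its log2 fold change was 2.41 (SE 0.15, adjusted p = 5.93e-12) without them and 1.41 (SE 0.46, adjusted p = 0.24) with them. Chil1, a chitinase-like protein of epithelium and macrophages, had 505 to 684 CPM (median 615) after silica, 88.1, 124, 146 and 96.4 CPM in kept and 906 and 363 CPM in left-out air libraries. Replicate 4 exceeded every silica library. On the log2 scale the difference was 2.42 (SE 0.16, adjusted p = 5.93e-12) without them and 1.07 (SE 0.52, adjusted p = 0.47) with them.

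Saa3, an acute-phase serum amyloid A made by macrophages and epithelium, had log2 fold changes of opposite sign in the 2 analyses, the second not past the threshold. It had 12.1 to 22.8 CPM (median 15.7) after silica, against 3.75, 2.23, 1.35 and 3.59 CPM in kept and 245 and 54.8 CPM in left-out air libraries, and both left-out libraries were above every silica library. The log2 fold change was 2.55 (SE 0.41, adjusted p = 0.00032) without them and -1.67 (SE 0.77, adjusted p = 0.44) with them. Pigr, the receptor that carries polymeric immunoglobulin A across epithelium, had 217 to 359 CPM (median 247) after silica, 68.6, 53.1, 109 and 91.0 CPM in kept and 294 and 105 CPM in left-out air libraries, and its log2 fold change was 1.79 (adjusted p = 1.88e-06) without them and 1.2 (adjusted p = 0.18) with them. The decrease in the list, Ltf, which encodes the iron-binding lactoferrin of neutrophil granules and secretions, had 0 to 5.7 CPM (median 2.49) after silica, 3.75, 4.46, 31.0 and 5.39 CPM in kept and 44.2 and 12.9 CPM in left-out air libraries. Air replicate 3 alone held 31.0 CPM. The call (log2 fold change -2.02, adjusted p = 0.041) was lost without it or without any one of silica replicates 1 to 5, and the lowest value over fits leaving out 1 library was -2.35 and the highest -0.69.

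Chemokine genes followed the same pattern. Among neutrophil chemoattractants 3 of 5 tested rose without the left-out libraries, and among CC chemokines 5 of 7 did. In that fit 1.47% of all tested genes rose. With all libraries none of 6 and 1 of 7 passed, where 0.125% of all tested genes rose. Cxcl5, made by alveolar epithelium, had 13.2 to 34.8 CPM (median 22.9) after silica, 5.62, 1.34, 4.49 and 7.18 CPM in kept and 41.0 and 24.4 CPM in left-out air libraries, at a log2 fold change of 2.35 (adjusted p = 1.29e-05) without them and 0.73 (adjusted p = 0.62) with them. Cxcl3, a ligand of CXCR2 like Cxcl5, had 3.6 to 13.7 CPM (median 10.3) after silica, 0, 0, 3.15 and 0.599 CPM in kept and 61.5 and 12.4 CPM in left-out air libraries. Air replicates 1 and 2 had no count of it, and replicate 4 had the most of all 12. Its log2 fold change was 3.29 (adjusted p = 0.00091) without the left-out libraries and -0.47 (adjusted p = 0.9) with all. Cxcl1, the third of the list to rise, had a log2 fold change of 1.99 (adjusted p = 0.0024) and -0.057 (adjusted p = 0.99). Cxcl3 (adjusted p = 0.24) and Cxcl1 (0.16) lost the call when the wild-type high-Chil3 library stayed in the fit. Cxcl5 (adjusted p = 0.01) kept it.

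Ccl3, a macrophage inflammatory protein that attracts leukocytes, had 8.77 to 12.5 CPM (median 11.7) after silica, 0.750, 0.446, 2.25 and 1.2 CPM in kept and 20.5 and 5.06 CPM in left-out air libraries. On the log2 scale the difference was 3.25 (adjusted p = 1.03e-05) without them and 1.16 (adjusted p = 0.55) with them. Ccl17, which shares the receptor CCR4 with Ccl22, had 3.41 to 11.3 CPM (median 6.83) after silica, 1.5, 2.23, 1.8 and 0 CPM in kept and 5.47 and 6.44 CPM in left-out air libraries. The log2 fold change was 2.35 (adjusted p = 0.0029) and 1.35 (adjusted p = 0.35). Ccl6, an abundant macrophage chemokine, had 302 to 452 CPM (median 388) after silica, 165, 214, 177 and 186 CPM in kept and 561 and 293 CPM in left-out air libraries, at 1.03 (adjusted p = 8.17e-06) and 0.51 (adjusted p = 0.65) on the log2 scale. Ccl17 (adjusted p = 0.11) and Ccl6 (0.26) lost the call when the wild-type high-Chil3 library stayed in the fit. Ccl3 (adjusted p = 0.045) and Ccl22 (0.015) kept it. Ccl9 was the remaining increase of the CC chemokine list. Markers of neutrophils themselves did not follow: none of 7 tested passed in either analysis, the median log2 fold changes were -0.20 without and -0.46 with the left-out libraries, and the summed level of the list was 121 to 245 CPM after silica, 121 to 424 CPM in kept and 197 to 351 CPM in left-out air libraries.

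**Figure D3:**
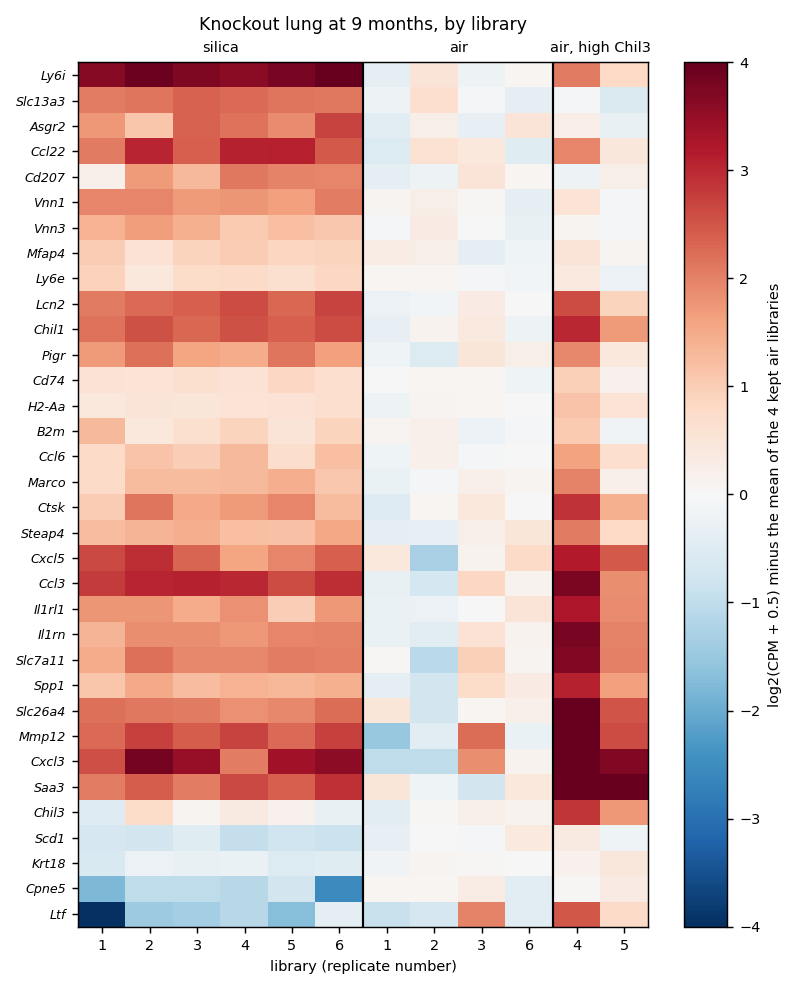
Log2(CPM + 0.5) of 34 genes in each of the 12 knockout libraries at 9 months, as the difference from the mean of the 4 kept air libraries; colours saturate at 4 in either direction. Columns are silica replicates 1 to 6, kept air replicates 1, 2, 3 and 6, and high-Chil3 air replicates 4 and 5. Genes from Ly6i to Ly6e are mostly highest in silica columns, those from Lcn2 to Saa3 are high in silica and in 1 or both high-Chil3 columns, and the last 4 genes are lower in silica columns.

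Macrophage genes rose in part. The list counts that follow are those without the left-out libraries, and with all libraries no member of these lists passed except Scd1 and Krt18. Of all tested genes 1.47% rose and 0.226% fell without the left-out libraries. That is the share to set beside these and the later list counts. Of 17 lipid-laden and recruited macrophage genes 5 rose, namely Spp1, Mmp12, Lpl, Fabp5 and Gpnmb. Of 16 resident alveolar macrophage genes 2 rose (Marco, Atp6v0d2) and 2 fell (Ear1, Cidec). Of 13 osteoclast-type genes 3 rose (Ctsk, Atp6v0d2, Tnfrsf11a), and of 25 lysosome genes 3 (Cd68, Ctsz, Ctsc). None of 14 interstitial macrophage and monocyte genes passed. Ctsk, the collagen-degrading cathepsin K of osteoclasts, had 80.4 to 174 CPM (median 121) after silica, 27.4, 42.0, 52.6 and 39.5 CPM in kept and 298 and 105 CPM in left-out air libraries, at a log2 fold change of 1.66 (adjusted p = 1.05e-06) without them and 0.41 (adjusted p = 0.86) with them. Marco, a scavenger receptor that binds silica, had 106 to 171 CPM (median 151) after silica, 52.1, 59.8, 71.9 and 67.6 CPM in kept and 249 and 71.8 CPM in left-out air libraries, at 1.22 (adjusted p = 5.45e-06) and 0.61 (adjusted p = 0.61).

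Spp1, the secreted phosphoprotein osteopontin, had 157 to 207 CPM (median 185) after silica, 55.8, 43.3, 121 and 90.4 CPM in kept and 604 and 224 CPM in left-out air libraries. Its log2 fold change was 1.26 (adjusted p = 0.00013) without them and -0.053 (adjusted p = 0.99) with them. Mmp12, macrophage elastase, had 37.5 to 52.3 CPM (median 46.2) after silica, 2.25, 5.36, 36.4 and 5.99 CPM in kept and 203 and 47.9 CPM in left-out air libraries. A kept library, air replicate 3, was close to the lowest silica library, and without it the log2 fold change was 3.41 in place of 1.88 (adjusted p = 0.0013). With all libraries it was -0.14 (adjusted p = 0.97). Ctsk (adjusted p = 0.23), Marco (0.15), Spp1 (0.26) and Mmp12 (0.13) lost the call when the wild-type high-Chil3 library stayed in the fit. The summed level of the resident alveolar macrophage list, which holds Chil3, was 1822 to 2974 CPM after silica, 1737 to 2489 CPM in kept and 4571 to 9077 CPM in left-out air libraries. That of the type 2 response and mucus list, which holds Chil3 as well, was 986 to 1790 CPM after silica, 909 to 1393 CPM in kept and 4781 to 13848 CPM in left-out air libraries. The part of the left-out lungs' macrophage and type 2 genes in the lost calls was not tested.

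For genes of interleukin 1 signalling and of cystine import the left-out libraries lay within or above the silica range. Il1rn, the interleukin 1 receptor antagonist, had 23.2 to 35.8 CPM (median 32.5) after silica, 7.12, 6.25, 13.0 and 9.58 CPM in kept and 127 and 35.4 CPM in left-out air libraries, at a log2 fold change of 1.83 (adjusted p = 1.44e-06) without them and -0.066 (adjusted p = 0.98) with them. Il1rl1, the interleukin 33 receptor, had 6.82 to 12.8 CPM (median 12.1) after silica, 2.62, 2.68, 3.15 and 4.79 CPM in kept and 34.6 and 13.3 CPM in left-out air libraries, at 1.77 (adjusted p = 2.40e-05) and 0.12 (adjusted p = 0.97). With Il1a these were 3 of the 14 inflammasome and interleukin 1 genes tested. Slc7a11, which imports cystine for glutathione synthesis, was the one call among 20 oxidative stress and glutathione genes. It had 21.1 to 35.1 CPM (median 29.7) after silica, 7.5, 3.13, 14.4 and 7.78 CPM in kept and 99.3 and 30.8 CPM in left-out air libraries, at 1.86 (adjusted p = 5.45e-06) and 0.12 (adjusted p = 0.97). Its call was lost when the wild-type high-Chil3 library stayed in the fit (adjusted p = 0.15). Il1rn (adjusted p = 0.018) and Il1rl1 (0.037) kept theirs. Among iron, zinc and metallothionein genes 4 of 14 rose, namely the metalloreductase Steap4 (1.34, adjusted p = 8.85e-06, and 0.59, adjusted p = 0.52, with all libraries), the iron exporter of phagosomes Slc11a1, the ferritin heavy chain Fth1 and the zinc transporter Slc39a2.

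Some antigen presentation genes rose, by small amounts. Without the left-out libraries 7 of 16 dendritic cell and MHC class II genes were called (Cd74, H2-Aa, H2-Eb1, H2-Ab1, Itgae, Fscn1, Xcr1), with a median log2 fold change of 0.53 over the list, and none of 16 with all (median 0.17). Cd74, the invariant chain, had 1029 to 1255 CPM (median 1094) after silica, 705, 757, 749.9 and 636 CPM in kept and 1372 and 801 CPM in left-out air libraries. On the log2 scale the difference was 0.64 (SE 0.079, adjusted p = 5.45e-06) without them and 0.41 (SE 0.15, adjusted p = 0.31) with them. H2-Aa, an alpha chain of MHC class II, had 415 to 491 CPM (median 447) after silica, 269, 331, 329.8 and 314 CPM in kept and 683 and 451 CPM in left-out air libraries, at 0.53 (adjusted p = 1.29e-05) and 0.18 (adjusted p = 0.74). Of 11 MHC class I and immunoproteasome genes B2m (0.80, adjusted p = 0.00043) and H2-D1 (0.50, adjusted p = 0.0081) rose. With all libraries they were at 0.59 (adjusted p = 0.25) and 0.23 (adjusted p = 0.63). H2 genes are near copies of each other whose shared reads cannot be assigned here. One of 18 interferon-stimulated genes passed, while the median log2 fold change over the list was 0.96 (0.38 with all libraries). It was Oas1a, with 5.18 to 18.4 CPM (median 7.97) after silica, 1.5, 3.13, 1.8 and 1.8 CPM in kept and 10.0 and 8.28 CPM in left-out air libraries. Its call (2.11, adjusted p = 0.024) was lost without any one of air replicates 1, 3 and 6 or silica replicate 1, and with all libraries it was at 1.03 (adjusted p = 0.45). H2-D1 (adjusted p = 0.13) and Oas1a (0.091) also lost the call when the wild-type high-Chil3 library stayed in the fit. Cd74, H2-Aa and B2m kept it.

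Of 14 complement genes 3 rose without the left-out libraries, C3 (0.56, adjusted p = 0.0011), the alternative-pathway factor Cfb (0.93, adjusted p = 0.016) and C1ra. With all libraries C3 was at -0.12 (adjusted p = 0.93) and Cfb at -0.10 (adjusted p = 0.97), of the opposite sign. C3 had 1439 to 2141 CPM (median 1852) after silica, 1099.6, 1149, 1559 and 1154 CPM in kept and 5185 and 1793 CPM in left-out air libraries, so that its silica and kept air ranges overlapped at 1 library each. Both calls were lost when the wild-type high-Chil3 library stayed in the fit, and that of Cfb without any one of air replicates 1, 2 and 6. The catalytic NADPH oxidase subunit Cybb (0.54, adjusted p = 0.023) and the Nox1 organiser Noxo1 (1.45, adjusted p = 7.95e-05) were 2 of 8 oxidase and peroxidase genes to rise. With all libraries Cybb was at -0.14 (adjusted p = 0.94) and Noxo1 at 0.96 (adjusted p = 0.16), and the call of Cybb was lost without any one of silica replicate 2 and air replicates 1, 2 and 6. Of 8 cell division genes Mki67, a marker of cycling cells, rose (0.77, adjusted p = 0.0017), with 42.8 to 71.6 CPM (median 66.4) after silica, 32.2, 42.4, 33.3 and 36.5 CPM in kept and 136 and 36.8 CPM in left-out air libraries, and it was at 0.23 (adjusted p = 0.87) with all libraries. Among 14 T and natural killer cell genes Tnfrsf9 was called (2.43, adjusted p = 0.0097), though not without air replicate 1 or with all libraries (0.12, adjusted p = 0.98), and none of 16 B cell and plasma cell genes was. Cybb (adjusted p = 0.66), Mki67 (0.26) and Tnfrsf9 (0.12) also lost the call when the wild-type high-Chil3 library stayed in the fit. Noxo1 (adjusted p = 0.013) kept it.

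Few matrix genes passed the test. Of 23 extracellular matrix and fibrosis genes 3 rose without the left-out libraries, with a median log2 fold change of 0.13 over the list, and none passed with all (median -0.073). Beside Spp1 they were Tgfb1 and Col1a1. Tgfb1, the growth factor that drives fibroblast matrix synthesis, had 39.9 to 60.5 CPM (median 60.0) after silica, 35.6, 36.2, 41.3 and 31.1 CPM in kept and 78.3 and 29.0 CPM in left-out air libraries, at 0.60 (adjusted p = 0.0081) and 0.39 (adjusted p = 0.44). Col1a1, an alpha chain of type I collagen, had 60.0 to 145 CPM (median 120.4) after silica, 84.7, 70.5, 65.6 and 64.7 CPM in kept and 142 and 53.8 CPM in left-out air libraries. Silica replicate 2, at 60.0 CPM, was below every kept air library. Its call (0.66, adjusted p = 0.037) was lost without any one of air replicates 2, 3 and 6 or silica replicates 1, 3, 4, 5 and 6, and with all libraries it was 0.50 (adjusted p = 0.38).

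**Figure D4:**
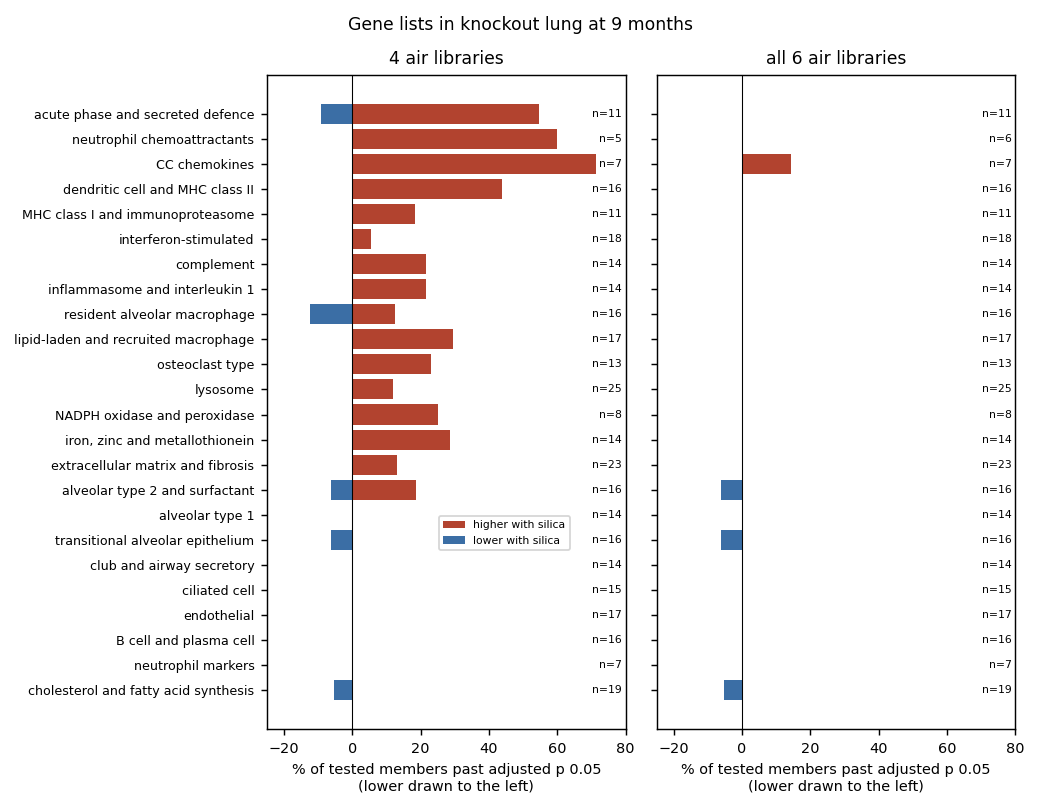
Share of the tested members of 24 gene lists past an adjusted p of 0.05, higher with silica in red to the right and lower in blue to the left, for knockout lung at 9 months with 4 air libraries (left panel) and with all 6 (right panel); n is the number of members tested. Acute phase, chemokine and MHC class II lists have the longest bars with 4 air libraries, and with all 6 a CC chemokine and the decreases of Scd1 and Krt18 remain. Of all tested genes 1.47% were higher and 0.226% lower with 4 air libraries, and 0.125% and 0.0546% with all 6.

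Epithelial lists had few calls. Of 16 alveolar type 2 and surfactant genes 3 rose, the collectins Sftpd (0.41, adjusted p = 0.028) and Sftpa1 and the mucin Muc1 (0.52, adjusted p = 0.04), and Scd1 fell. With all libraries Sftpd was at 0.024 (adjusted p = 0.98) and Muc1 at 0.53 (adjusted p = 0.24). Their calls were lost in 5 and 8 of the 19 fits that left out 1 more library. Each of these losses came from leaving out 1 of the 10 knockout libraries. None of 14 alveolar type 1, 14 club and airway secretory, 15 ciliated, 17 endothelial and 12 smooth muscle and pericyte genes passed in either analysis, nor did any of 10 lung identity genes, whose summed level was 20675 to 27228 CPM after silica, 20197 to 24074 CPM in kept and 17634 to 19068 CPM in left-out air libraries. Of 15 epithelial ion transport genes Slc26a4 and the chloride channel Slc26a9 (0.46, adjusted p = 0.048) rose without the left-out libraries. Slc26a9 was at 0.56 (adjusted p = 0.058) with all, and its call was lost in 13 of the 19 fits. The 6 haemoglobin genes had no count in the 12 libraries. None of 16 immediate early genes passed, and of 15 clock genes Bhlhe41 did.

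Decreases were few and mostly small, and for those described here the left-out air libraries mostly lay among or above the other air libraries. Scd1, the stearoyl-CoA desaturase of fatty acid synthesis, abundant in alveolar type 2 and fat cells, had 1824 to 2501 CPM (median 2074) after silica, 2782, 3595, 3339 and 4601 CPM in kept and 4497 and 3117 CPM in left-out air libraries. No silica library reached any air library. The log2 fold change was -0.77 (SE 0.13, adjusted p = 0.00043) without the left-out libraries and -0.80 (SE 0.16, adjusted p = 0.03) with all, and it was the one call among 19 cholesterol and fatty acid synthesis genes. The second call was lost without any one of silica replicates 4, 5 and 6 or air replicates 2 and 6. Cpne5, a calcium-dependent phospholipid-binding copine, had 1.04 to 4.87 CPM (median 3.73) after silica, 8.99, 8.93, 10.3 and 5.99 CPM in kept and 8.65 and 10.6 CPM in left-out air libraries. The groups did not overlap, at -1.36 (SE 0.29, adjusted p = 0.0076) and -1.41 (SE 0.25, adjusted p = 0.013).

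Krt18, a keratin of simple epithelium, was the call among 16 transitional alveolar epithelium genes. It had 75.7 to 98.4 CPM (median 89.5) after silica, 105, 125, 120.4 and 117 CPM in kept and 130.2 and 159 CPM in left-out air libraries, without overlap, at -0.39 (adjusted p = 0.028) and -0.51 (adjusted p = 0.034). The first call was lost without any one of silica replicates 1, 5 and 6 or air replicates 2, 3 and 6. The second was lost in 8 of the 22 fits that left out 1 library, each time 1 of the 12 knockout libraries. Adssl1, an adenylosuccinate synthase of muscle, fell, with log2 fold changes of -0.79 (adjusted p = 0.016) and -0.83 (adjusted p = 0.043). Mfsd2a, a transporter of lysophospholipids carrying omega-3 fatty acids, fell without the left-out libraries at -1.08 (adjusted p = 0.017), as did the amino acid transporter Slc38a4 (-1.0, adjusted p = 0.0052) and the lipid droplet protein Cidec (-0.80, adjusted p = 0.02). With all libraries their adjusted p-values were 0.086, 0.14 and 0.16. Without the left-out libraries the call of Mfsd2a was lost in 2 and that of Cidec in 4 of the 19 fits that left out 1 more library. These losses, too, came from leaving out 1 of the 10 knockout libraries. The second call of Adssl1 was lost in 15 of the 22 fits that left out 1 library. Ear1, an eosinophil-associated ribonuclease with near copies in the genome, had 5.18 to 10.4 CPM (median 8.96) after silica, 13.5, 28.1, 13.0 and 15.0 CPM in kept and 11.4 and 11.5 CPM in left-out air libraries, at -0.97 (adjusted p = 0.016) and -0.81 (adjusted p = 0.17). Without air replicate 2, its highest value, the first call was lost. Nfil3 was -0.72 (adjusted p = 0.078) without and -0.98 (adjusted p = 0.043) with the left-out libraries, and its call was lost in 11 of the 22 fits.

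The knockout response was next set against the wild-type one at the same time. Without the high-Chil3 air libraries wild-type lungs had 156 increases (1.22% of 12839) and 55 decreases (0.428%). The 2 genotypes shared 99 increases, which is 52.4% of the knockout list and 63.5% of the wild-type list. Both air groups were trimmed by the same Chil3 limit and tested in 1 fit, so the lists are not independent. No expected overlap was computed. With all libraries wild-type lungs had 3 calls (0.0234% of 12826), each an increase, and 2 of them were among the 16 knockout increases. Lcn2 had log2 fold changes of 2.41 in knockout and 2.31 in wild-type lungs, and Chil1 of 2.42 in knockout and 2.66 in wild-type lungs. Ly6i had 4.24 in knockout and 4.44 in wild-type lungs, and Vnn1 1.84 in knockout and 1.61 in wild-type lungs. Slc26a4 itself had 2.16 in knockout and 1.89 in wild-type lungs. The difference between the genotypes' silica effects was tested as an interaction in edgeR. With all libraries no gene of 12826 passed (0%), 901 had an unadjusted p under 0.05, and 2 passed by DESeq2's Wald test and 1 by limma-voom with library weights. Without the high-Chil3 libraries 1 of 12839 passed (0.00779%), and 1046 had an unadjusted p under 0.05.

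That gene was Lars2, the mitochondrial leucyl-tRNA synthetase, whose row took 8.33% of all counts of the series. Its share of a library's counts ranged from 1.74% to 14.1% over the series. Which RNA the reads of this row came from was not tested. The row took 6.81% to 11.4% of counts in knockout silica libraries and 5.26% to 7.80% in knockout air libraries. In wild-type libraries it took 6.58% to 8.58% after silica and 8.58% to 14.1% in air. Its log2 fold change was 0.49 (adjusted p = 0.067) in knockout and -0.63 (adjusted p = 0.01) in wild-type lungs, a difference of 1.12 (SE 0.20, adjusted p = 0.041), and 1.02 (adjusted p = 0.35) with all libraries. The call was lost in 12 of the 19 fits that left out 1 more library, and without silica replicate 2 of the knockout 24 genes were called. Mir6236, the row of a microRNA gene, had 336 to 706 CPM (median 555) after silica, 322, 295, 382 and 127 CPM in kept and 324 and 206 CPM in left-out knockout air libraries. Its silica effect was 0.92 (adjusted p = 0.014) in knockout and -0.41 (adjusted p = 0.39) in wild-type lungs, and the difference of 1.34 did not pass (adjusted p = 0.21). Its knockout call was lost without air replicate 6, and with all libraries the knockout effect was 0.96 (adjusted p = 0.051). Ly6e and Mfap4, called in the knockout, had 0.12 (adjusted p = 0.7) and 0.17 (adjusted p = 0.59) in wild type, and their differences of 0.60 (SE 0.15, adjusted p = 0.23) and 0.68 (SE 0.17, adjusted p = 0.23) did not pass. Col1a1 had 0.66 in knockout and -0.39 in wild type, with a difference of 1.04 (SE 0.24, adjusted p = 0.23).

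**Figure D5:**
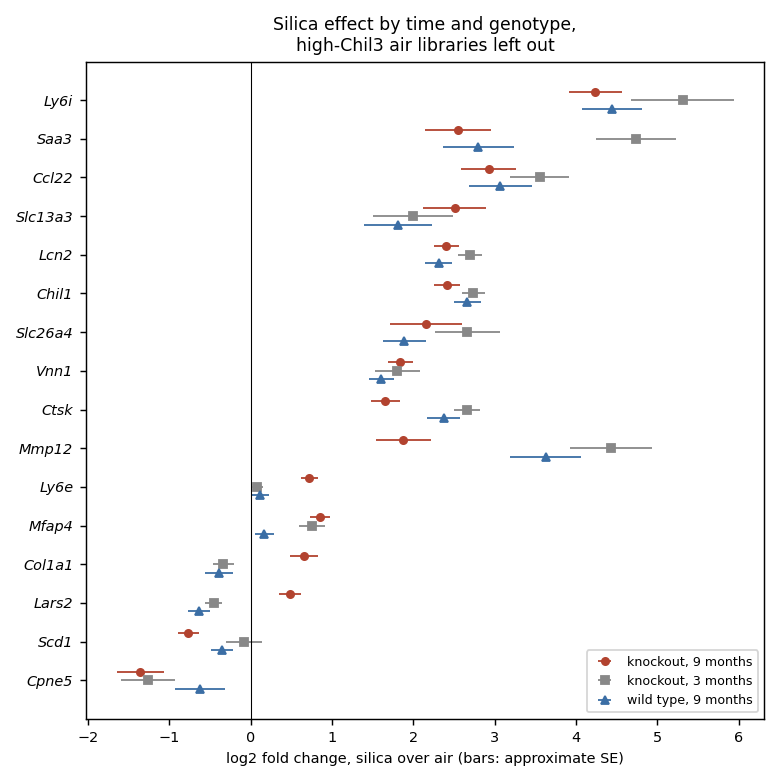
Log2 fold change of silica over air for 16 genes in knockout lung at 9 months (red circles), knockout lung at 3 months (grey squares) and wild-type lung at 9 months (blue triangles), with the high-Chil3 air libraries left out; bars are SE. Lcn2, Chil1, Vnn1 and Slc26a4 are positive in all 3, Mmp12 and Saa3 have lower values at 9 than at 3 months in the knockout, and Lars2 and Col1a1 are above 0 in the knockout at 9 months and below 0 in the other two.

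Fewer genes were called at 9 months than at 3 months in the knockout, in fits of different libraries. The 12 knockout libraries of 3 months gave 382 increases (3.02% of 12647) and 225 decreases (1.78%). They were tested in a fit of all 3-month libraries of both genotypes. Of the 189 increases at 9 months 118 were also increases at 3 months, which is 62.4% of the 9-month list and 30.9% of the 3-month list. Of the 29 decreases 6 were shared, 20.7% of the 9-month and 2.67% of the 3-month list. The difference in the silica effect, 9 months minus 3 months, was tested over all 70 libraries. It was called for 170 of 13252 genes (1.28%), 74 higher and 96 lower at 9 months, and for 3 of 13305 (0.0225%) once the 3 high-Chil3 libraries were left out.

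Saa3 had log2 fold changes of 2.55 at 9 months and 4.74 at 3 months, and the difference was -2.2 (adjusted p = 0.4) without and -6.41 (adjusted p = 0.001) with the high-Chil3 libraries. Mmp12 had 1.88 at 9 months and 4.43 at 3 months, with differences of -2.57 (adjusted p = 0.17) and -4.56 (adjusted p = 0.0045). Lcn2, Chil1 and Vnn1 had 2.41, 2.42 and 1.84 at 9 months against 2.7, 2.74 and 1.81 at 3 months, and none of their differences passed in either analysis. The genes called without the high-Chil3 libraries were the transcription factor Nfia, the pseudouridine synthase family member Rpusd2 and the lysosomal glucuronidase Gusb. Nfia had 0.30 at 9 months and -0.27 at 3 months, a difference of 0.56 (SE 0.11, adjusted p = 0.028). Rpusd2 had 0.97 at 9 months and -0.62 at 3 months, a difference of 1.57 (SE 0.32, adjusted p = 0.037). Gusb had -0.024 at 9 months and 0.69 at 3 months, a difference of -0.73 (SE 0.15, adjusted p = 0.028).

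How many genes were called rested on single libraries. With all libraries the count of 23 ranged over 7 without silica replicate 4 to 63 without air replicate 4 of the knockout, and it was 52 without silica replicate 2. Without the high-Chil3 libraries the count of 218 was 125 and 130 without air replicates 1 and 2, and up to 246 without another library. It was 44 when only the 2 knockout air libraries were left out. The wild-type one stayed in that fit, where it takes part in the estimate of spread. With the 2 knockout groups alone in the fit, 181 of the 189 increases and 28 of the 29 decreases were called. Of the 58 genes given here with a knockout log2 fold change and called without the high-Chil3 libraries, 33 lost it with the wild-type library kept. Not every loss is named above. The wild-type library enters the spread and hardly the knockout difference, so an unchanged sign in that fit shows nothing. In the fits that left out 1 more library each, 84 of the 189 increases and 6 of the 29 decreases were called in every one. With all libraries 6 of the 16 increases and 1 of the 7 decreases were.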

How the data were processed

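Lung RNA was depleted of ribosomal RNA and made into stranded libraries with 12 PCR cycles, per the labels. The authors deposited whole-number read counts per gene for 70 libraries. The tools named are Trimmomatic 0.35, HISAT2 2.1.0, SAMtools 1.8 and HTSeq 0.11.2, with the build mm10, per the submitters' processing notes; the strand setting and annotation are not given in the sources used here. The deposited table has 24439 rows, of which 19 repeated a gene with the same counts and were dropped, which left 24420.

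Samples were grouped by exposure, genotype and time from the labels. Replicate numbers are in order of accession and pair nothing. Counts were tested as deposited with edgeR 4.0.16 in R 4.3.3 (glmQLFit, glmQLFTest; filterByExpr, TMM) over the 4 groups of 9 months, with 22 libraries, or 19 without air libraries over 1500 CPM of Chil3. The fit over 70 libraries has 12 groups. The SE is the log2 fold change divided by the root of the F statistic, an approximation. A gene at a few CPM rests on few reads per library. The code was tested on simulated data.

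Named genes were Slc26a4, Chil3, the 15 largest increases and 10 largest decreases past 0.05 with a mean of at least 1 CPM in each fit, up to 4 members of each gene list with the smallest p, and the 5 smallest adjusted p-values in each direction of each interaction; values are printed for part of them. The members, lists and Chil3 limit were chosen with earlier results of these data known, so list counts are descriptions. Alternatives were DESeq2 1.42.0 size factors and Wald test, limma 3.58.1 voom with library weights, other low-count filters, other sets of libraries, and each library left out in turn. For 9 minus 3 months they were only size factors, the 1 CPM filter, the 4 knockout groups alone and voom. Dependence of those calls on single libraries was not tested. In the knockout comparisons a left-out wild-type library acts through the shared spread, filter and scaling, and hardly moves the log2 fold change.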

Additional observations from a re-analysis of the deposited data

Results flagged for a closer look

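In groups of 6 libraries, a highest or lowest value was marked when its gap to the next one exceeded 0.625 of the group's range. This was applied to 92 groups, part of the printed genes and 2 library measures in knockout silica and knockout air lungs. Printed genes outside these groups were not screened. The limit is meant to mark about 1 in 20 groups by chance. Air replicate 4 was left out for its Chil3, and many of the genes were called only in the fit without it. Its marks were thus partly fixed in advance and are not set against that rate. No silica group and 28 air groups were marked, and in 25 of these the marked library was air replicate 4. In CPM, that library had these secreted defence and antigen-presentation genes marked: Lcn2 at 504 (next highest 153), Chil1 at 906 (next highest 363), Saa3 at 245 (next highest 54.8), Pigr at 294 (next highest 109), Cd74 at 1372 (next highest 801), B2m at 1011 (next highest 564) and C3 at 5185 (next highest 1793). The chemokine and cytokine-pathway genes marked in it were Ccl22 at 8.65 (next highest 3.13), Cxcl3 at 61.5 (next highest 12.4), Cxcl1 at 41.4 (next highest 11.5), Ccl3 at 20.5 (next highest 5.06), Ccl6 at 561 (next highest 293), Il1rn at 127 (next highest 35.4) and Il1rl1 at 34.6 (next highest 13.3). The macrophage, matrix and other genes were Slc26a4 at 52.4 (next highest 17.0), Ly6i at 6.38 (next highest 2.30), Marco at 249 (next highest 71.9), Ctsk at 298 (next highest 105), Spp1 at 604 (next highest 224), Mmp12 at 203 (next highest 47.9), Slc7a11 at 99.3 (next highest 30.8), Steap4 at 102 (next highest 41.4), Mki67 at 136 (next highest 42.4), Col1a1 at 142 (next highest 84.7) and Tgfb1 at 78.3 (next highest 41.3).

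The other marked values were Slc13a3 at 1.79 CPM (next highest 0.91) and Ear1 at 28.1 CPM (next highest 15.0), both in knockout air replicate 2, and 15652 detected genes in knockout air replicate 6, against 15981 in the next lowest library. Air replicate 6 also had the fewest counts of its group, 1610786.

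Effects that differed between groups by the interaction test of edgeR, adjusted over all genes, were marked as well. Which RNA the reads of the Lars2 row came from was not tested. The silica effect on that row was higher in knockout than in wild-type lungs at 9 months, by 1.12 on the log2 scale, without the high-Chil3 air libraries. Without these libraries the silica effect in knockout lungs was higher at 9 than at 3 months for Nfia (0.56) and Rpusd2 (1.57), and lower for Gusb (-0.73). With all libraries the 5 smallest adjusted p-values of a higher effect at 9 months belonged to Nfia (0.73, adjusted p = 0.00064), Atf7 (0.62, 0.0055), Rpusd2 (1.6, 0.0055), R3hdm2 (0.73, 0.0057) and Mir6236 (1.65, 0.0074). Those of a lower effect belonged to Saa3 (-6.41, adjusted p = 0.001), Mmp12 (-4.56, 0.0045), Anxa2 (-0.47, 0.0057), Mgl2 (-1.64, 0.0087) and Ch25h (-2.51, 0.0094). Of these, Nfia and Rpusd2 were also past the threshold without the high-Chil3 air libraries.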

How the results depend on the processing

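No paired analysis was possible because the labels give no replicate numbers. For knockout silica against air with all libraries, 23 calls became 54 with DESeq2's Wald test, 13 with a minimum mean of 1 CPM, 147 with all times in the fit, 143 with voom weights and 14 with the 2 knockout groups alone. Leaving out 1 library gave 7 to 63 calls: knockout silica replicates 2, 3, 4, 5 and 6 gave 52, 10, 7, 9 and 8, knockout air replicates 2, 3, 4, 5 and 6 gave 11, 37, 63, 10 and 9, wild-type air replicates 1, 3 and 5 gave 14, 14 and 39, and wild-type silica replicates 1 and 5 gave 14 and 13. Without the high-Chil3 air libraries, 218 calls became 44 when only the knockout ones were left out and 35 with a Chil3 limit of 750 CPM, which keeps 1 knockout air library, assumed to vary like the other groups. Leaving out 1 more library gave 125 to 246, with 125 and 130 without knockout air replicates 1 and 2. Split by direction, the all-library calls were 79 higher and 68 lower with all times in the fit and 115 higher and 28 lower with voom weights, against 16 higher and 7 lower as reported.

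For the difference between genotypes with all libraries, 0 calls became 2 with the Wald test and 1 with voom weights, and 0 to 1 when 1 library was left out. Without the high-Chil3 libraries, 1 call became 8 with the Wald test, 6 with no low-count filter and 0 with all times in the fit, and 0 to 24 when 1 more library was left out, with 24 without knockout silica replicate 2, 3 without wild-type silica replicate 5 and 2 without knockout silica replicate 3. For 9 minus 3 months, 170 calls with all libraries became 29 with the 4 knockout groups alone and 51 with voom weights. The 3 calls without the high-Chil3 libraries became 12 and 32 under the same settings. The cause was not tested for any of these.

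With all libraries Cxcl3, Mmp12 and Il1rn were not called and had negative log2 fold changes, and with voom weights, which count each library by its own estimated quality, they were called higher at 3.14, 2.22 and 1.51. Of the 16 genes given with values and called with all libraries 7 kept the call under all 29 alternatives. Of the 58 called without the high-Chil3 libraries 13 did under all 28, 21 lost it in at least 1 fit leaving out 1 more library, and 38 lost it at the limit of 750 CPM. Asgr2 and Cd207 fell under the low-count filter in some fits. None of these called genes changed sign in a fit that tested it. Fits that differ only in wild-type libraries could hardly have changed it.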
